A study of Mus musculus with 4 samples.

Results

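Chromatin accessibility was examined at 10 genes that regulate energy metabolism in the heart: the PPAR nuclear receptor genes Ppara, Ppard and Pparg, their partner Rxra, the estrogen-related receptor (ERR) genes Esrra, Esrrb and Esrrg, the PGC1 coactivator genes Ppargc1a and Ppargc1b, and Klf15. The measurements were ATAC-seq, in which a transposase inserts sequencing adapters into open DNA, on hearts of mice at postnatal day 14 from 2 Carm1 mutant and 2 wild-type (WT) samples. Carm1 encodes an arginine methyltransferase that serves as a coactivator of nuclear receptors. The labels gave no allele, strain, Cre line or pooling of animals for either genotype, and named the tissue only as heart. A peak belonged to a gene when it overlapped the gene body or lay within 30 kb of either end, and this rule gave 251 of the 87948 peaks in the deposited table (mm10). All 251 passed the filter on low counts. Of them, 224 lay in the listed gene or, outside genes, nearest to it, and 27 lay in or nearer to a neighbouring gene, 10 of these at Ppard and 10 at Esrra.

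PPARs bind DNA as pairs with RXR and respond to fatty acids, and in the heart PPARα and PPARδ drive genes of fatty acid uptake and oxidation, while PPARγ is best known from adipocytes. ERRs are orphan receptors that bind single extended half-sites and control genes of the respiratory chain and the TCA cycle. PGC1 proteins do not bind DNA themselves: they dock on PPARs, ERRs and other factors and raise mitochondrial gene transcription, which climbs after birth as the heart turns from glucose to fatty acids. KLF15 is a zinc finger factor that promotes use of lipids and branched-chain amino acids and restrains cardiac growth.

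The stretch before the transcription start is shown for 5 of these genes, because the open region there is the one whose level is compared first and these promoters differ in composition. The sequences are the 250 bases before the start, 5′ to 3′ on the gene's strand, from RefSeq promoters of GRCm38.p6. They lie at chr15:85735526-85735775 (plus strand, Ppara), chr6:115360894-115361143 (plus, Pparg), chr19:6921809-6922058 (minus, Esrra), chr5:51567726-51567975 (minus, Ppargc1a) and chr6:90462326-90462575 (plus, Klf15). Capitals mark 3 short motifs on either strand: the nuclear receptor half-site AGGTCA, the E-box CACGTG and the cAMP response half-site TGACG.
Ppara: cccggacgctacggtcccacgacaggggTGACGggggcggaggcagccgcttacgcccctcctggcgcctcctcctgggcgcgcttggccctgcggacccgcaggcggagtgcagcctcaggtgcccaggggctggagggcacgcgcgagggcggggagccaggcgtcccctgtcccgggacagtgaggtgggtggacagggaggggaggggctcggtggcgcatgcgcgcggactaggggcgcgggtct
Pparg: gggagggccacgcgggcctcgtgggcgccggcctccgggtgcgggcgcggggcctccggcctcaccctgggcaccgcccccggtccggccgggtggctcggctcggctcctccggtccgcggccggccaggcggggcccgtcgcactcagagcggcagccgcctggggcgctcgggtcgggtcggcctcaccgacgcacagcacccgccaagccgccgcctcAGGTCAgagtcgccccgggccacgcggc
Esrra: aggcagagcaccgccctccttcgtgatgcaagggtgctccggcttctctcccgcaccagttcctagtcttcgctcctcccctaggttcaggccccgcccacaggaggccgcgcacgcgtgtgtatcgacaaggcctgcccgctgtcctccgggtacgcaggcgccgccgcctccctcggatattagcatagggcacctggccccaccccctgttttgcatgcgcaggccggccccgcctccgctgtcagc
Ppargc1a: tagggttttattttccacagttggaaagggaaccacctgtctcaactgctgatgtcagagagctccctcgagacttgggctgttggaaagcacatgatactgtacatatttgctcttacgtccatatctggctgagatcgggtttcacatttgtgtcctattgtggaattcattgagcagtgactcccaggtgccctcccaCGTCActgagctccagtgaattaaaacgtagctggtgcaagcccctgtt
Klf15: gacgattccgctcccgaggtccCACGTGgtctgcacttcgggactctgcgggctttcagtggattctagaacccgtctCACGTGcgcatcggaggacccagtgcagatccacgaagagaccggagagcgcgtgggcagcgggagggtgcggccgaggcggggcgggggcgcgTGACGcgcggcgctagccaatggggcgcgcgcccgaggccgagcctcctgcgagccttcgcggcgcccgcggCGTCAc

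The promoters ran from GC-rich (76.4% G or C at Ppara and 82.4% at the Pparg promoter shown) to mixed (48.0% at Ppargc1a). RefSeq gave 16 promoter windows for 9 of the 10 genes, and 14 of them overlapped a peak. Among these 16 windows of 300 bases, none held the full ERR element TCAAGGTCA or the PPAR-RXR element DR1 (a direct repeat of AGGTCA with 1 base between), which 0.423% and 0.0396% of all 32851 windows held. The half-site AGGTCA was in 3 of the 16, at Pparg and Rxra (16.3% of all windows), and TGACG was in 5 (20.8% of all). The E-box CACGTG was found only at Klf15 among these windows, with 2 copies in the printed stretch (7.15% of all windows held at least 1). These matches describe letters in a window and no binding was measured.

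Few peaks at the 10 genes passed the test between genotypes. Of the 251 peaks, 1 was higher and 8 were lower in the mutant at an edgeR adjusted p under 0.05, hereafter called peaks. That is 3.59% of the peaks, against 5.50% of all peaks tested (0.398% against 3.05% for higher and 3.19% against 2.45% for lower peaks). The called peaks lay at Ppargc1a, Esrra, Esrrb and Esrrg, and the other 6 genes, with 148 peaks, had none. The median log2 fold change, mutant over WT, was 0.05 over the 251 peaks and 0.00 over all peaks. Both mutant libraries lay above both WT libraries at 65 peaks (25.9%, against 25.8% of all peaks) and below them at 61 (24.3%, against 25.7%). Peaks outside the gene body and away from starts (58) had a median of 0.22, and 24 of them were higher and 6 lower in both mutant libraries, but 0 were called higher and 2 lower; this split was looked at after the values were seen. Of the 44 peaks with a mean of at least 20 CPM (read counts scaled to a common library size adjusted by TMM), 1 was called.

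Libraries had 16740589 and 15945420 counts in peaks in the mutant and 17508230 and 19091969 in the WT, and the member peaks had a median of 6.29 CPM, against 5.54 CPM over all peaks. Where nothing states that libraries came from separate animals, the p-values measure only the spread between these samples. Over 25 peaks on chromosome Y the libraries had 3834 and 2260 counts in the mutant and 2321 and 1434 counts in the WT, and what this unequal signal has to do with the results was not tested. Cardiomyocyte marker genes were open, with a median start peak of 93.0 and 80.8 CPM in the mutant libraries and 71.3 and 72.5 CPM in the WT libraries over 8 genes, while 2 of 6 liver genes had a start peak. The strongest end peak of Carm1 had 91.4 and 95.5 CPM in the mutant and 90.1 and 89.5 CPM in the WT (log2 fold change 0.06, SE 0.12, adjusted p = 0.839 by edgeR). The altered part of the gene is not labelled, so this peak does not check the genotypes.

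At the transcription starts no called difference was found. A start peak is one over or within 1 kb of a start listed by RefSeq, or of either gene end for Ppargc1b. There were 18 start peaks and 0 were called, against 5.50% of all peaks. An unadjusted p under 0.05 by edgeR was found at 4 of the 18, against 21.8% of all peaks. For the strongest start peak of each gene, log2 fold changes lay between -0.41 and 0.38, 8 of 10 within 0.2 of 0, and the genotypes overlapped at 9 of 10. Their 95% intervals reached at the widest from -0.78 to 0.84, so smaller differences at some starts cannot be told from none with 2 libraries a group.

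**Figure D1:**
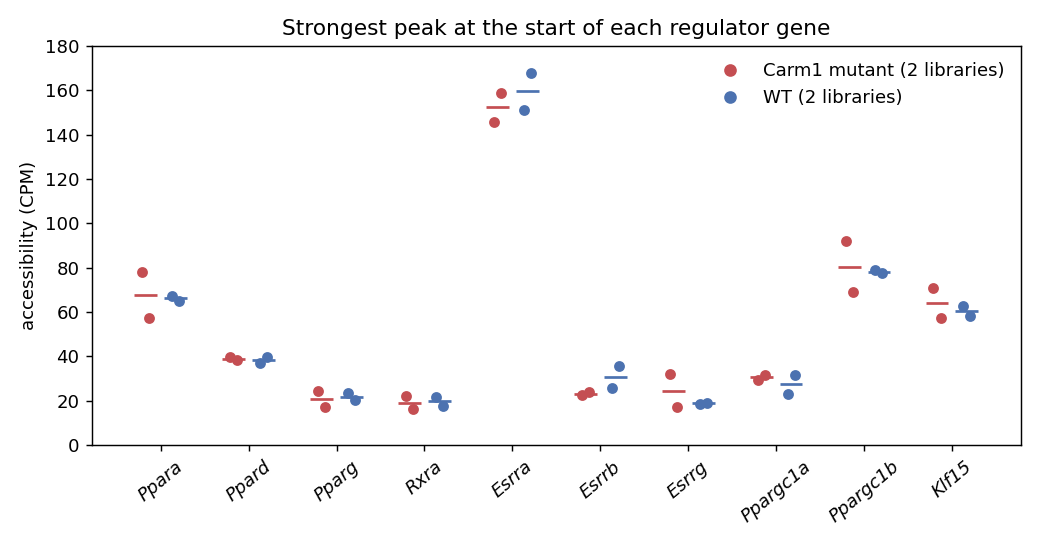
Accessibility (CPM) of the strongest start peak of each gene, with 1 point per library and a bar at the mean of the 2 libraries, Carm1 mutant left of WT. Esrra is the most open, at 146 to 168 CPM, and the genotypes overlap at every gene but Esrrb.

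The order of these start peaks by level was Esrra, Ppargc1b, Ppara, Klf15, Ppard, then Ppargc1a, Esrrb, Esrrg, Pparg and Rxra. Esrra, which encodes ERRα, abundant in oxidative tissue, had 146 and 159 CPM in the mutant and 151 and 168 CPM in the WT. Ppargc1b had 91.8 and 68.8 CPM in the mutant and 78.8 and 77.6 CPM in the WT. Taking the range over all 4 libraries, Esrra stood clear of Ppargc1b, Klf15 of Ppard, and Ppard of Ppargc1a, while the ranges of each other pair of neighbours overlapped. Peaks differ in width, so this order is of counts per peak and not per base.

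The 3 PPAR genes held 61 peaks, of which 0 were called, and 5.50% were called over all peaks. With an unadjusted p under 0.05 there were 53 of the 251 member peaks (21.1%), against 21.8% of all peaks. At Ppara, which encodes the main fatty acid sensor of cardiomyocytes (chromosome 15, 85734910 to 85806851), the start peak (85734272 to 85737388) had 78.0 and 57.2 CPM in the mutant and 67.3 and 64.8 CPM in the WT. Its log2 fold change was 0.03 (SE 0.15, adjusted p = 0.926 by edgeR). The genotypes overlapped there.

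Before the Ppara start lay 9 peaks within 30 kb, a stretch singled out after its values were seen. All 9 had a positive log2 fold change, the median was 0.30, and at 7 both mutant libraries lay above both WT libraries, though none was called. Such separation was found at 25.8% of all peaks for higher and 25.7% for lower values, which also holds beside the like counts at the other genes. The one nearest the threshold lay 23.4 kb before the start (85711742 to 85713109). It had 13.3 and 15.0 CPM in the mutant and 8.71 and 8.88 CPM in the WT. Its log2 fold change was 0.68 (SE 0.22, adjusted p = 0.0669 by edgeR). The peaks 25.5 kb (85708894 to 85711618) and 11 kb (85723993 to 85725473) before the start were stronger. The first had 60.8 and 57.7 CPM in the mutant and 55.2 and 44.1 CPM in the WT, and the second had 38.3 and 32.5 CPM in the mutant and 30.2 and 27.2 CPM in the WT (adjusted p = 0.321 and 0.276 by edgeR). The 9 peaks in the body had a median of -0.36, and 5 of them were lower in both mutant libraries. The strongest peak in the window, within the neighbouring gene Cdpf1 (85810405 to 85812236), had 83.5 and 74.4 CPM in the mutant and 75.0 and 94.5 CPM in the WT.

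Ppard encodes the broadly expressed PPARδ (chromosome 17, 28232754 to 28301469). Its start peak (28232233 to 28233792) had 39.5 and 38.4 CPM in the mutant and 37.0 and 39.7 CPM in the WT (log2 fold change 0.02, SE 0.15, adjusted p = 0.95 by edgeR). A peak 3.8 kb into the gene (28235653 to 28237405) had 22.9 and 24.8 CPM in the mutant and 35.3 and 33.7 CPM in the WT. The groups did not overlap there, and the difference missed the threshold narrowly (log2 fold change -0.53, SE 0.16, adjusted p = 0.0522 by edgeR). It passed with total-count scaling (0.0373), trended offsets (0.0371) and a mean CPM of at least 2 (0.0495). Both mutant libraries lay above the WT libraries at 11 of the 24 peaks and below them at 4. The strongest peak, within the neighbouring gene Fance (28313210 to 28313915), had 49.5 and 50.9 CPM in the mutant and 49.96 and 53.9 CPM in the WT.

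Pparg, the adipocyte regulator (chromosome 6, 115360879 to 115490404), was the gene with the lowest median, -0.31 over 13 peaks, with 7 peaks lower and 2 higher in both mutant libraries. The peak that missed the threshold most narrowly of all 251 lay 15.3 kb before its start (115345559 to 115346137), at 3.41 and 3.72 CPM in the mutant and 7.13 and 6.61 CPM in the WT. The groups did not overlap (log2 fold change -0.94, SE 0.28, adjusted p = 0.0504 by edgeR). It passed under RLE (0.0492), total-count (0.0427) and trended (0.0366) scaling. The start peak (115360735 to 115362503), which spans the first and second promoter of RefSeq, had 24.3 and 17.4 CPM in the mutant and 23.3 and 20.2 CPM in the WT (log2 fold change -0.06, SE 0.19, adjusted p = 0.895 by edgeR). A weak peak within 1 kb of the start farther into the gene (115420852 to 115421257) had 1.82 and 2.59 CPM in the mutant and 4.19 and 3.25 CPM in the WT, and was not called (log2 fold change -0.75, SE 0.35, adjusted p = 0.218 by edgeR). Peaks at 8 adipocyte marker genes, including Adipoq and Plin1, summed to 493 and 503 CPM in the mutant and 421 and 441 CPM in the WT. Of their 52 peaks 2 rose, at Cidea and Plin1 (3.85%, against 3.05% of all peaks). Of the 8 genes 1 had a start peak. The part of these genes in the values at Pparg was not tested. In whole heart, fewer cells of a type and less open DNA per cell cannot be told apart.

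Rxra, a partner of PPARs (chromosome 2, 27676445 to 27763319), had 28 peaks and 0 calls. Its strongest start peak (27675981 to 27677097) had 22.0 and 16.0 CPM in the mutant and 21.5 and 17.8 CPM in the WT (log2 fold change -0.05, SE 0.20, adjusted p = 0.924 by edgeR). The strongest peak (27773564 to 27776251) lay past the gene's far end. It had 31.4 and 39.9 CPM in the mutant and 25.6 and 27.5 CPM in the WT. Its log2 fold change was 0.43 (SE 0.16, adjusted p = 0.129 by edgeR). The 2 groups did not overlap there. Within the gene body the median over 19 peaks was 0.01, against 0.44 over the 6 peaks outside it.

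**Figure D2:**
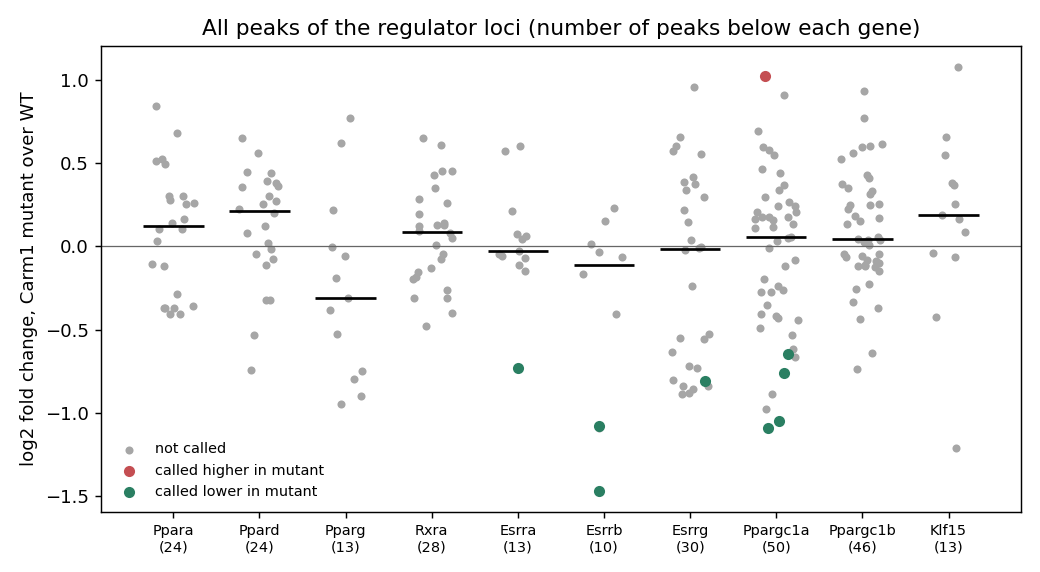
Log2 fold change (Carm1 mutant over WT) of each of the 251 peaks, by gene, with the number of peaks below each name, a bar at the gene's median and colour for called peaks. The 8 lower calls lie at the ERR genes and Ppargc1a, the 1 higher call at Ppargc1a, and the medians lie between -0.31 (Pparg) and 0.21 (Ppard).

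The ERR genes held 53 peaks, and 4 of them fell in the mutant while 0 rose (2.45% and 3.05% of all peaks did). Of the 4, 1 lay inside Gpr137, a neighbour of Esrra. At Esrrb, known for its role in pluripotent cells and less for the heart (chromosome 12, 86361117 to 86521628), 2 of 10 peaks were called, both lower. The one inside the gene (86371799 to 86372282) had 4.99 and 3.22 CPM in the mutant and 7.41 and 9.96 CPM in the WT (log2 fold change -1.08, SE 0.28, adjusted p = 0.0305 by edgeR). The one past the far end (86538691 to 86539000) was weak, at 0.97 and 1.58 CPM in the mutant and 3.39 and 3.66 CPM in the WT (log2 fold change -1.47, SE 0.39, adjusted p = 0.0312 by edgeR). Neither pair of groups overlapped. The start peak (86360717 to 86361774) had 22.6 and 23.8 CPM in the mutant and 25.7 and 35.8 CPM in the WT, the only one of the strongest start peaks at which the groups did not overlap. It was not called (log2 fold change -0.41, SE 0.18, adjusted p = 0.184 by edgeR), and its WT replicate 2 lay well above WT replicate 1. At Esrrb 5 of 10 peaks were lower and 0 higher in both mutant libraries.

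Esrrg encodes the ERR most tied to the metabolic switch of the heart after birth (chromosome 1, 187608510 to 188214885). Of its 30 peaks 1 was called, lower, 46.2 kb after the nearest start (187698188 to 187698633). It had 6.14 and 6.25 CPM in the mutant and 10.4 and 11.4 CPM in the WT (log2 fold change -0.81, SE 0.24, adjusted p = 0.0497 by edgeR). Peaks with higher values were found farther into the gene. The one at 187939109 to 187939493 had 8.58 and 5.93 CPM in the mutant and 3.85 and 3.61 CPM in the WT. It was not called (log2 fold change 0.96, SE 0.28, adjusted p = 0.0519 by edgeR). Over the gene, 7 peaks were higher and 11 lower in both mutant libraries.

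RefSeq lists several starts for Esrrg, and none of their 4 peaks was called. The first (peak 187608480 to 187610635) had 31.8 and 17.2 CPM in the mutant and 18.4 and 19.09 CPM in the WT. Mutant replicate 1 alone was high there (log2 fold change 0.38, SE 0.22, adjusted p = 0.323 by edgeR). A later one (187652455 to 187653004) had 4.44 and 2.78 CPM in the mutant and 6.17 and 6.76 CPM in the WT (log2 fold change -0.84, SE 0.30, adjusted p = 0.101 by edgeR, unadjusted p = 0.0105). The difference between the starts was not tested. The strongest peak, deep in the gene (187836363 to 187837322), had 33.8 and 31.2 CPM in the mutant and 24.2 and 28.7 CPM in the WT, and was not called (log2 fold change 0.29, SE 0.16, adjusted p = 0.301 by edgeR).

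Esrra is short and lies among other genes (chromosome 19, 6910977 to 6922048), so 10 of its 13 peaks lay in or nearer to neighbours that include Trmt112, Prdx5, Kcnk4, Gpr137 and Bad. Its start peak (6919909 to 6923775) was the strongest of all 251 and held 32.5% of the CPM of the locus (log2 fold change -0.07, SE 0.12, 95% interval -0.31 to 0.18, adjusted p = 0.798 by edgeR). The called peak lay within Gpr137, 16.5 kb before the Esrra start (6937819 to 6938846). It had 15.5 and 11.4 CPM in the mutant and 21.0 and 23.6 CPM in the WT (log2 fold change -0.73, SE 0.20, adjusted p = 0.0343 by edgeR). The groups did not overlap.

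The PGC1 genes held 96 peaks, and the called ones, 4 lower and 1 higher, were all at Ppargc1a. Ppargc1a encodes PGC1α, the inducible coactivator of mitochondrial biogenesis (chromosome 5, 51454249 to 52115853). RefSeq gives this gene a body of 661.6 kb because some transcripts begin far upstream, and its 50 peaks place it above 99.6% of 17457 protein-coding gene loci by number. The promoter set held no start at the upstream end of the body, so that end was not counted as a start. The peak there (52115805 to 52116812) had 11.9 and 12.7 CPM in the mutant and 9.62 and 9.75 CPM in the WT. It was not called (log2 fold change 0.34, SE 0.22, adjusted p = 0.38 by edgeR). The start peak (51567496 to 51568769) had 29.4 and 31.7 CPM in the mutant and 23.0 and 31.5 CPM in the WT (log2 fold change 0.16, SE 0.17, adjusted p = 0.637 by edgeR). The strongest peak, 14.7 kb into the gene (51551672 to 51554323), had 61.0 and 49.4 CPM in the mutant and 42.7 and 50.6 CPM in the WT (log2 fold change 0.24, SE 0.15, adjusted p = 0.369 by edgeR). At both the groups overlapped.

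Away from that start, 3 peaks fell among the 25 upstream of it. The peak 473 kb upstream (52040306 to 52041243) was the member with the smallest p. It had 11.7 and 11.7 CPM in the mutant and 23.3 and 24.98 CPM in the WT (log2 fold change -1.05, SE 0.19, adjusted p = 0.00345 by edgeR). The peak 332 kb upstream (51899336 to 51900202), the strongest of the called peaks, had 33.6 and 30.6 CPM in the mutant and 44.9 and 55.6 CPM in the WT (log2 fold change -0.65, SE 0.15, adjusted p = 0.019 by edgeR). A weaker one 273.4 kb upstream (51840959 to 51841340) had 2.86 and 3.15 CPM in the mutant and 5.26 and 7.53 CPM in the WT (log2 fold change -1.09, SE 0.30, adjusted p = 0.0386 by edgeR). None of these groups overlapped. Over the 25 upstream peaks the median was 0.06, with 5 higher and 6 lower in both mutant libraries.

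Downstream of the start, 1 of 24 peaks fell and 1 rose. The one that fell, 30.4 kb in (51536916 to 51537707), had 11.0 and 8.96 CPM in the mutant and 13.9 and 19.9 CPM in the WT (log2 fold change -0.76, SE 0.22, adjusted p = 0.0495 by edgeR). The one that rose, 90.4 kb in (51476883 to 51477681), had 17.5 and 9.15 CPM in the mutant and 7.07 and 6.04 CPM in the WT (log2 fold change 1.03, SE 0.27, adjusted p = 0.0319 by edgeR). Mutant replicate 1 lay well above mutant replicate 2, which was still above both WT libraries. Both mutant libraries lay below the WT libraries at 10 of the 24 peaks and above them at 3.

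**Figure D3:**
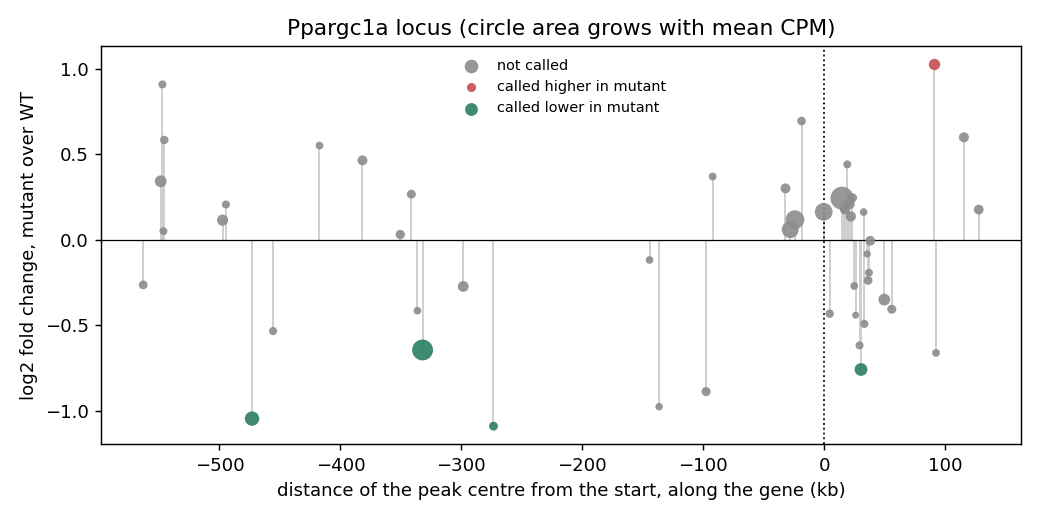
Log2 fold change (Carm1 mutant over WT) of the 50 peaks of Ppargc1a against the distance (kb) of each peak's centre from the RefSeq start, with negative distances upstream, circle area growing with mean CPM and colour for called peaks. The strong peaks near the start lie close to 0, and 3 of the 4 lower calls lie 273.4 to 473 kb upstream.

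Ppargc1b encodes PGC1β, whose role overlaps that of PGC1α in the heart (chromosome 18, 61291445 to 61400756). None of its 46 peaks was called. The strong peak at its upper end (61397991 to 61402046) had a log2 fold change of 0.04 (SE 0.14, adjusted p = 0.911 by edgeR). Its listed orientation was not used here, so the peak at the other end (61290238 to 61291050) also counted as a start peak. That peak had 6.45 and 5.87 CPM in the mutant and 4.07 and 4.03 CPM in the WT (log2 fold change 0.60, SE 0.28, adjusted p = 0.207 by edgeR). The peak nearest the threshold (61293755 to 61295255) had 14.4 and 10.7 CPM in the mutant and 8.03 and 6.66 CPM in the WT. The groups did not overlap there (log2 fold change 0.77, SE 0.24, adjusted p = 0.0606 by edgeR).

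At Klf15 (chromosome 6, 90461043 to 90491803) 0 of 13 peaks were called, and 7 were higher and 2 lower in both mutant libraries. The start peak (90461318 to 90464384), over the promoter with the E-boxes shown above, had 70.7 and 57.5 CPM in the mutant and 62.7 and 58.1 CPM in the WT (log2 fold change 0.09, SE 0.14, adjusted p = 0.78 by edgeR). The strongest peak (90507595 to 90509600), past the far end, had 76.8 and 68.0 CPM in the mutant and 60.3 and 60.8 CPM in the WT (log2 fold change 0.26, SE 0.13, adjusted p = 0.272 by edgeR). The groups did not overlap at that peak and did at the start. A peak 14.6 kb into the gene (90476865 to 90477516) had 10.3 and 8.46 CPM in the mutant and 5.49 and 6.40 CPM in the WT, without overlap (log2 fold change 0.66, SE 0.25, adjusted p = 0.123 by edgeR).

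**Figure D4:**
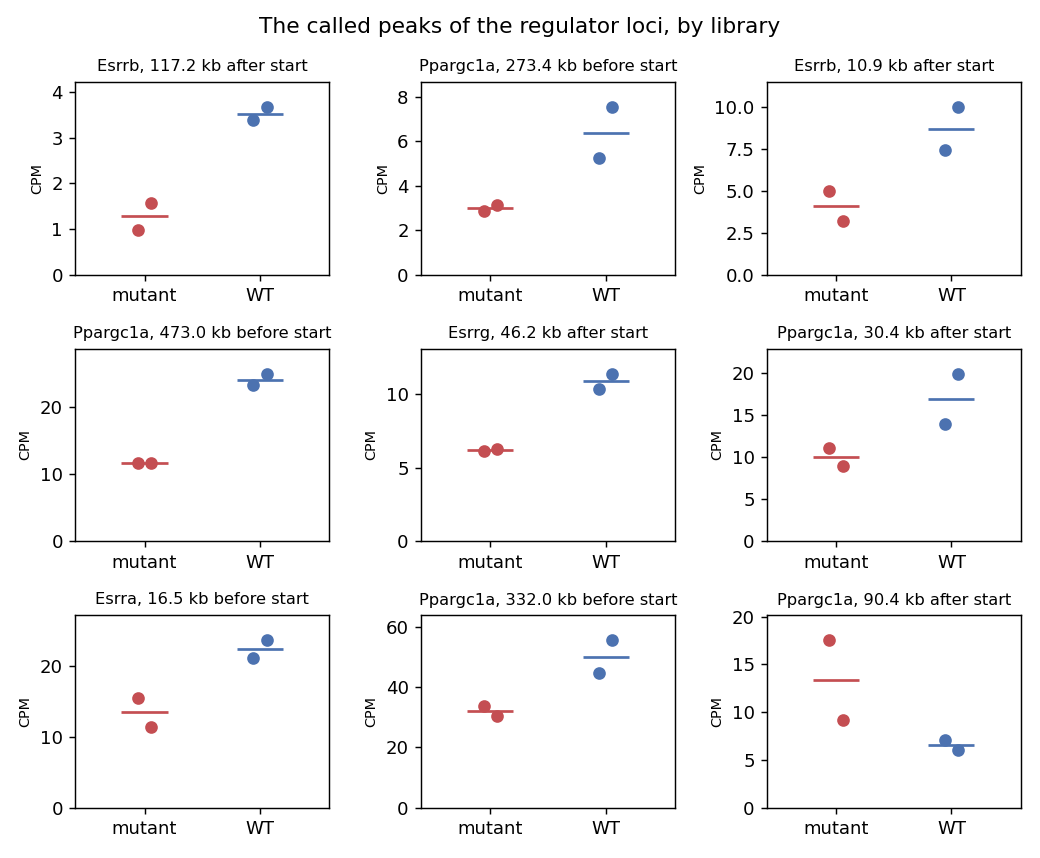
Accessibility (CPM) of the 9 called peaks in each library, 1 point per library with a bar at the mean of 2, Carm1 mutant left of WT, and the distance of the peak's centre from the nearest RefSeq start above each panel. The mutant libraries lie below both WT libraries in 8 panels and above them at the Ppargc1a peak 90.4 kb after the start.

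The calls depended on single libraries. Each of the 9 kept its direction in all 12 alternative fits, of which the one with no filter repeated the main fit. The groups did not overlap at any of the 9, so leaving out 1 library could not reverse a direction. Without WT replicate 2 none of the 9 passed (edgeR adjusted p from 0.0545, at the Ppargc1a peak 473 kb upstream, to 0.529, at the one 30.4 kb in). Without WT replicate 1 it was 3: those 473 and 332 kb upstream at Ppargc1a and the one within Esrrb, while the other 6 had 0.0505 to 0.154. Without mutant replicate 1 the Esrrg peak (0.0674), the distal Esrrb peak (0.101) and the Ppargc1a peaks 273.4 kb upstream (0.057) and 90.4 kb in (0.352) were lost. The last had a log2 fold change of 0.48 in that fit. Without mutant replicate 2 the Esrra (0.081), Esrrg (0.0512), inner Esrrb (0.0843) and Ppargc1a 30.4 kb (0.0728) peaks were lost. DESeq2, which called 2.70% of all peaks, called 2 of the 9, those 473 and 332 kb upstream at Ppargc1a. Limma voom, which called 4.21% of all peaks, called 5 of the 9. A fit with 1 library left out takes the spread of the lone library from the other genotype's pair.

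Counts were also summed over all peaks of a locus and tested over 17457 protein-coding gene loci, of which 2.25% were called (1.32% higher and 0.928% lower). None of the 10 loci was called by edgeR, DESeq2 or limma voom, and 3 had an unadjusted p under 0.05 (17.3% of all loci did). At Klf15 the summed peaks had 302 and 272 CPM in the mutant and 248 and 248 CPM in the WT (log2 fold change 0.18, 95% interval 0.02 to 0.34, adjusted p = 0.232 by edgeR). At Pparg they had 87.2 and 96.6 CPM in the mutant and 112 and 97.4 CPM in the WT (log2 fold change -0.22, 95% interval -0.44 to -0.01, adjusted p = 0.272 by edgeR). At Esrrb they had 94.9 and 79.6 CPM in the mutant and 89.7 and 113 CPM in the WT, which overlapped (log2 fold change -0.25, 95% interval -0.50 to -0.0009, adjusted p = 0.287 by edgeR). The other 7 log2 fold changes lay between -0.08, at Ppargc1a, and 0.05, at Ppargc1b. The intervals of these 7 loci lay within -0.28 and 0.24.

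**Figure D5:**
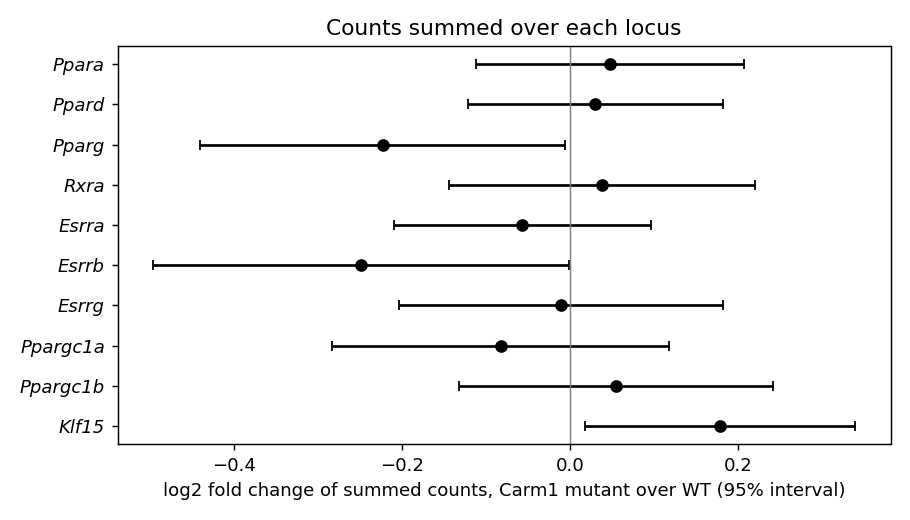
Log2 fold change (Carm1 mutant over WT) of counts summed over each locus, with its 95% interval from edgeR. The intervals of Klf15, Pparg and Esrrb lie on 1 side of 0, those of the other 7 genes include 0, and none passes after adjustment over all loci.

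Partners and coregulators of these receptors (23 genes, among them Rxrb, Rxrg, the Ncoa coactivators, the corepressor gene Ncor1, Ep300, Crebbp and Sirt1) held 277 peaks. Of these 5 rose, 4 fell and 268 were not called (3.25%, against 5.50% of all peaks), with a median log2 fold change of 0.00. The 3 higher peaks with the smallest p near distinct genes lay in the windows of Kat2a, Ncoa3 and Perm1 but inside their neighbours Dhx58, Sulf2 and Agrn. The 3 lower ones with the smallest p lay inside the listed genes. A peak within Nrip1, which encodes the corepressor RIP140 (chromosome 16, 76324835 to 76325717), had 4.62 and 4.73 CPM in the mutant and 9.73 and 8.72 CPM in the WT (log2 fold change -0.98, SE 0.25, adjusted p = 0.0284 by edgeR). A peak within Ncoa2, a receptor coactivator gene (chromosome 1, 13352752 to 13353034), had 1.16 and 1.39 CPM in the mutant and 3.79 and 2.94 CPM in the WT. A peak within Lpin1, whose product works with PGC1α in liver (chromosome 12, 16585032 to 16585524), had 2.55 and 3.15 CPM in the mutant and 6.34 and 5.73 CPM in the WT. In all 3 the groups did not overlap. The call at Nrip1 was lost without WT replicate 1 (0.177) or WT replicate 2 (0.115). The call at Ncoa2 was lost without WT replicate 1 (0.241), WT replicate 2 (0.107) or mutant replicate 1 (0.0758), and so was that at Lpin1 (0.204, 0.15 and 0.0959 in the same order).

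Target genes of the 10 regulators (52 genes) held 573 peaks, of which 20 rose, 8 fell and 545 were not called (4.89%, against 5.50% of all peaks), with a median of 0.11. Among 305 peaks of 28 PPAR targets, 15 rose and 5 fell (6.56%; median 0.19), with 7 of the 15 at Pdk4, the kinase that holds back glucose oxidation. Among 207 peaks of 18 ERR and PGC1 targets, 4 rose and 2 fell (2.90%; median 0.07), and among 61 peaks of 6 KLF15 targets 1 rose and 1 fell. As summed loci, 3 of the 52 targets and 0 of the 23 partners were called, all higher (1.32% of all gene loci were called higher): Pdk4 and the neighbours Hadha and Hadhb, which share peaks and encode the trifunctional protein of fatty acid oxidation. Pdk4 summed to 416 and 332 CPM in the mutant and 228 and 238 CPM in the WT (log2 fold change 0.65, SE 0.09, adjusted p = 0.0069 by edgeR), and stayed called when any 1 library was left out. Hadha summed to 277 and 224 CPM in the mutant and 188 and 176 CPM in the WT (log2 fold change 0.43, SE 0.09, adjusted p = 0.0342 by edgeR; 0.0685 without mutant replicate 1, 0.0883 without WT replicate 2). Hadhb had adjusted p = 0.0481 by edgeR, and 0.116 and 0.16 in those 2 fits. With gene bodies alone Pdk4 stayed called and Hadha (0.114) and Hadhb (0.132) did not. By edgeR, Hadhb was also lost with trended offsets (0.0611), a mean CPM of at least 2 (0.0505) and a window of 5 kb (0.0817). It was lost as well without peaks in or nearer to a neighbouring gene (0.128), where Hadha stayed called (0.0326).

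Single target peaks moved both ways, also at the same gene. Of the 19 named partner and target peaks, not all are described. Left out are those higher in the mutant at Pdk4, Idh2, Slc25a4 and Bcat2. Those lower in the mutant at Cd36, Decr1 and Mfn2 are left out too. Within Lpl, the lipoprotein lipase gene, a peak (chromosome 8, 68890217 to 68891640) had 12.0 and 11.5 CPM in the mutant and 24.6 and 23.1 CPM in the WT (log2 fold change -1.02, SE 0.19, adjusted p = 0.00398 by edgeR). One 24.4 kb before its start (68856045 to 68856350) had 5.23 and 4.67 CPM in the mutant and 1.58 and 1.19 CPM in the WT (log2 fold change 1.84, SE 0.35, adjusted p = 0.0056 by edgeR; 0.0636 without WT replicate 2). Within Acadl, an acyl-CoA dehydrogenase gene (chromosome 1, 66839769 to 66840118), a peak had 5.84 and 4.54 CPM in the mutant and 1.64 and 0.72 CPM in the WT (log2 fold change 2.14, SE 0.39, adjusted p = 0.00426 by edgeR; 0.0581 without WT replicate 2). In each of these 3 peaks the groups were well apart. Of ERR and PGC1 targets, a peak 18.2 kb before Mb, the myoglobin gene (chromosome 15, 77068428 to 77069381), had 22.3 and 21.1 CPM in the mutant and 11.0 and 10.1 CPM in the WT, with the end of Rbfox2 nearer (log2 fold change 1.05, SE 0.19, adjusted p = 0.00426 by edgeR; 0.0686 without WT replicate 2). A peak within Idh3a, a TCA cycle gene (chromosome 9, 54594865 to 54595373), had 3.35 and 3.72 CPM in the mutant and 7.69 and 7.17 CPM in the WT (log2 fold change -1.07, SE 0.27, adjusted p = 0.027 by edgeR; 0.151 without WT replicate 1 and 0.126 without WT replicate 2). Of KLF15 targets, a peak within Bckdhb, a gene of branched-chain amino acid breakdown (chromosome 9, 83969327 to 83969693), had 1.22 and 2.08 CPM in the mutant and 4.02 and 6.09 CPM in the WT (log2 fold change -1.62, SE 0.37, adjusted p = 0.0145 by edgeR; 0.192 without WT replicate 2). Of the 19 named partner and target peaks, 3 stayed called without WT replicate 2 and 8 without WT replicate 1.

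Summed peaks of cardiomyocyte, mural cell and, narrowly, macrophage marker genes were higher in both mutant libraries. The endothelial and fibroblast sums overlapped between genotypes. The share of peaks called in either direction was 5.53% for cardiomyocyte and 5.05% for mural cell genes, against 5.50% of all peaks. It was smaller for endothelial, fibroblast and macrophage genes. Peaks of 8 cardiomyocyte marker genes summed to 6283 and 5405 CPM in the mutant and 5261 and 4833 CPM in the WT, with 18 of 380 peaks higher and 3 lower (3.05% and 2.45% of all peaks were). PPAR target peaks summed to 6349 and 5732 CPM in the mutant and 5384 and 5277 CPM in the WT. Peaks of 8 endothelial genes summed to 1427 and 1391 CPM in the mutant and 1716 and 1374 CPM in the WT, where WT replicate 1 was high. Of these 125 endothelial peaks 0 rose and 5 fell, at Erg, Pecam1, Tek and Tie1, with a median log2 fold change of -0.14. Of 99 peaks of 8 mural cell genes 5 rose, at Abcc9, Cspg4 and Myh11, and 0 fell. The fibroblast (453 and 525 against 437 and 469 CPM), macrophage (482 and 513 against 481 and 455 CPM) and mural cell sums (804 and 866 against 754 and 781 CPM) are given mutant first and WT second. Their part in the differences at the regulators and their targets was not tested.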

How the data were processed

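ATAC-seq was done on 4 heart samples. Per the submitters' processing notes, FastQC and Bowtie2 were used, without versions given, with build mm10. The peak caller, read filters, duplicate handling, any shift for the transposase and the making of the common peak set remain not given in the sources used here. All of these can change which regions were counted. The authors deposited raw counts per peak, per the file headers, as whole numbers with no normalization.

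Peaks were tied to genes with RefSeq tables of GRCm38.p6 (the assembly of mm10), which give gene ends and, for most genes, starts with strand. Exons were not used here, so no peak is placed in an exon, intron or UTR. Coordinates are as deposited. All 139 listed genes matched a symbol or synonym. The quasi-likelihood test of edgeR (version 4.0.16, under R 4.3.3) compared the peak counts (genotype only, TMM, filterByExpr, Benjamini-Hochberg adjustment over all 87948 peaks). The filter removed none. Locus sums were fitted the same way. Standard errors derive from the test statistic. Intervals use the fit's degrees of freedom. Log2 fold changes are mutant over WT. The procedure was tested on simulated data.

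The named peaks were all called member peaks, start peaks, the strongest peak of each gene, the 5 member peaks nearest below the threshold and, per list, up to 3 called peaks in each direction. Members and lists were chosen with earlier results of these data known. Alternatives were RLE, total-count and trended scaling, other filters, DESeq2 1.42.0, limma 3.58.1 voom, each library left out, a replicate block and other windows. Python 3.11.15 was used for the peak assignment.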

Additional observations from a re-analysis of the deposited data

How the results depend on the processing

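None of the 10 loci was called by summed counts under any of the 15 alternatives. Not every count of each alternative is listed here. With DESeq2 the member peaks had 0 higher and 2 lower calls, the partner peaks 2 higher and 0 lower, and the target peaks 4 lower. DESeq2 also called target peaks higher, among them those described within Acadl and before Lpl and Mb, but their number is not given here. Limma voom called 0 member peaks higher and 5 lower. Trended offsets called 2 member peaks higher. With a 5 kb window the partner list had 1 higher and the target list 11 higher calls, with gene bodies only 1 and 8, and without peaks nearer to another gene the partner list had 1. When 1 library was left out, member calls ranged from 0 to 8 higher and 0 to 11 lower, partner calls from 0 to 8 higher and 0 to 5 lower, target calls from 5 to 61 higher and 2 to 12 lower, and called member loci stayed at 0. RLE or total-count scaling and a mean CPM of at least 2 kept each count within 1.5 times. Because the filter removed no peak, the setting with no filter was the main fit again. It is counted among the alternatives but adds no check. The same replicate numbers are given to both genotypes but no label says that they pair libraries. Deviations of same-numbered libraries correlated at 0.108 across peaks. With the replicate block there were 6 higher and 17 lower member calls, 10 and 7 partner calls and 47 higher target calls, and the locus count stayed at 0. This block fit also called target peaks lower, among them those described within Lpl, Idh3a and Bckdhb, but their number is not given here. The share of all peaks called in this fit, or with 1 library left out, is not given here. The counts from those fits therefore cannot be read as particular to the lists. No named peak or locus that was called reversed its direction. At called peaks whose groups did not overlap, leaving out 1 library could not have reversed it. Of 510 values of named member peaks and loci under an alternative, 457 stayed on their side of the threshold, 35 lost and 18 gained a call. Of those not called, 31 changed sign. Only a called peak can lose a call, and all 35 losses were at the 9 called member peaks, each with 12 alternative fits. With 2 libraries a group, differences may be missed, and not only those under a 2-fold change. Of the 8 member peaks at a 2-fold change or more, not all were called. Those at Klf15 (90470569 to 90470771 and 90501630 to 90501889) had log2 fold changes of 1.08 and -1.21 (adjusted p = 0.108 and 0.0946 by edgeR). One within Esrrb (86438830 to 86439130) had -1.09 (adjusted p = 0.112 by edgeR). The causes of these shifts were not tested.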
